A study of Mus musculus with 51 samples.

Results

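Common lymphoid progenitors (CLP) sorted from bone marrow of Mll-AF9 knock-in mice were compared with CLP of wild-type mice, 7 samples against 8, on arrays that measure messenger RNA. These 15 samples, of 51 arrays in the series, were chosen by their titles. The series set out to find genes that differ between Mll-AF9 and wild-type cells in each of 4 sorted populations, which besides CLP are haematopoietic stem cells (HSC), common myeloid progenitors (CMP) and progenitors of granulocytes and macrophages (GMP). The Mll-AF9 allele joins Mll (Kmt2a) to Af9 (Mllt3) at the mouse's own Mll gene, so the fusion is driven by the Mll promoter in every cell that uses it and not in CLP alone. The sources used here give no strain, age, zygosity or disease state, nor do they say whether each sample is a separate mouse, so the p-values below measure how these samples vary, in part perhaps for technical reasons. All 7 Mll-AF9 CLP samples and wild type CLP replicate 1 carry the source name of sorted CMP, against their titles, and the titles were followed.

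CLP are bone marrow cells that have largely left the myeloid path and give rise to B, T and natural killer (NK) cells. They answer to interleukin-7 and Flt3 ligand, and they begin to express Dntt and the Rag genes, which cut and diversify antigen receptor genes. On the B path the factors Tcf3 (E2A) and Ebf1 switch on Vpreb1 and Igll1, which form the surrogate light chain of the pre-B cell receptor, and Blnk, the adaptor that passes on its signal. On the T path Notch signalling switches on Bcl11b and the T cell receptor loci open. MLL fusions bind chromatin and keep genes of early progenitors on, above all Hoxa5 to Hoxa10, Meis1 and Mecom.

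Values are log2 of robust multi-array average (RMA) intensities, so a difference of 1 is a doubling. A level of 4.62, the 95th percentile of 114 receptor and keratin-associated genes that blood cells do not use, was taken as background, and between 54.5% and 60.3% of genes lay above it in a CLP sample. Il7r, the interleukin-7 receptor chain that defines CLP, lay between 7.16 and 10.95 (median 9.88) in wild type and between 7.70 and 10.91 (median 10.17) in Mll-AF9, while its highest mean in any group of HSC, CMP or GMP was 5.05. Wild type replicate 8 (7.16) and Mll-AF9 replicates 5, 6 and 7 (8.03, 7.70 and 8.50) stood low, and so did wild type replicate 1 (8.42). Dntt, the enzyme that adds untemplated bases to receptor genes, lay at 10.88 or above in all 15 samples. It does not set CLP apart from HSC, where it averaged 11.60 in wild type and 10.93 in Mll-AF9. In wild-type CMP and GMP it averaged 8.02 and 5.77. Rag1, the recombinase, had means of 6.82 ± 1.45 (SD, n = 8) in wild type and 6.26 ± 1.30 (SD, n = 7) in Mll-AF9, against 3.28 or less in the other populations. The 8 samples with the CMP source name had Il7r at 7.70 or above, and Klf1, the erythroid factor, averaged 7.79 in Mll-AF9 CLP against 11.31 in Mll-AF9 CMP. Of 9 gate markers measured none was called at an adjusted p below 0.05, and their median difference was −0.06 against 0.06 over all genes. They included Flt3 (−0.94 ± 0.36, SE), Kit (0.00), Cd34 (−0.22), Cd27 (0.11), Ly6d (−0.21), Ptprc (0.16), Cd48 (−0.08) and Slamf1 (1.14 ± 0.28, adjusted p = 0.0967).

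**Figure D1:**
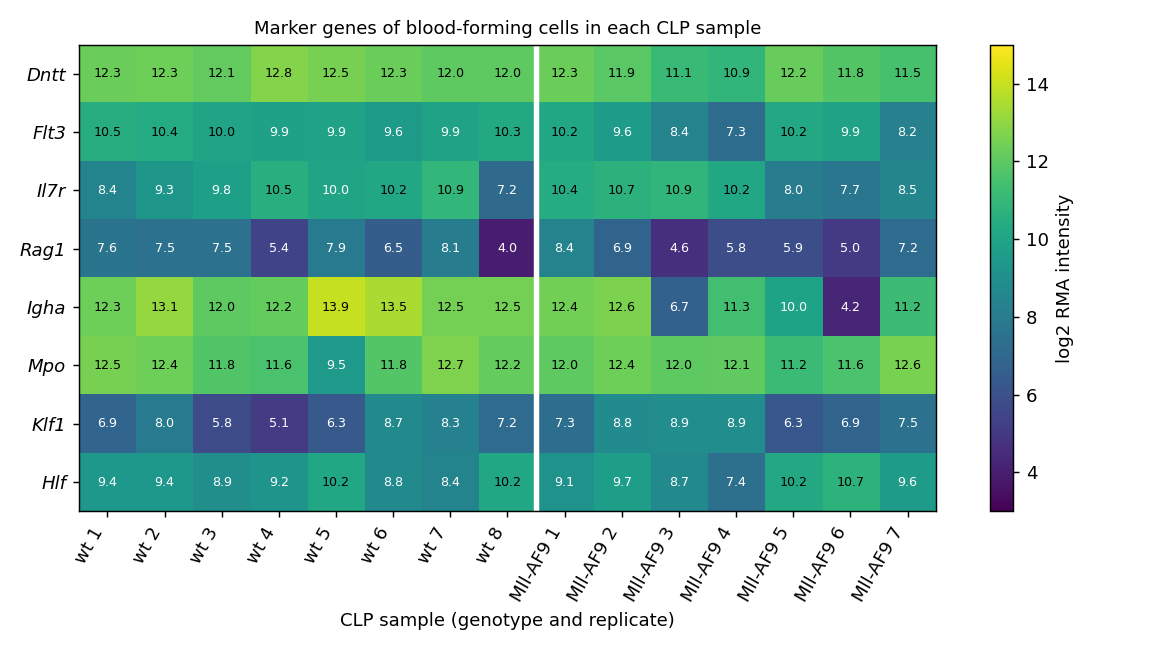
Log2 RMA intensity of 8 marker genes (rows) in the 8 wild type and 7 Mll-AF9 CLP samples (columns, labelled by genotype and replicate), with each value printed in its cell and coloured by the scale. Dntt is at 10.88 or above throughout, Il7r is lowest in wild type replicate 8 and Mll-AF9 replicate 6, and Igha stands at 4.22 in Mll-AF9 replicate 6.

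Transcripts known from other cells were present in both genotypes, and whether CLP or other cells in the sort held them was not tested. Mpo, the granule enzyme of myeloid progenitors, averaged 11.79 ± 1.02 (SD, n = 8) in wild-type and 11.97 ± 0.47 (SD, n = 7) in Mll-AF9 CLP, and the stem cell factor Hlf averaged 9.31 and 9.37. Jchain and Igha, the joining chain and the heavy chain of secreted IgA, averaged 12.39 and 12.75 in wild-type CLP. Both are known as products of plasma cells. In a sorted bulk sample, fewer cells of a type and less RNA per cell cannot be told apart.

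Sex and RNA quality moved with genotype. The Y-linked genes Eif2s3y and Kdm5d lay below background in all 7 Mll-AF9 samples and in 2 wild-type samples, replicates 4 and 8, and above it in the other 6, and Xist, the X-inactivation RNA of female cells, ran the opposite way. Xist rose by 5.73 ± 1.18 (SE, adjusted p = 0.035), Eif2s3y fell by 4.99 ± 1.00 (adjusted p = 0.0293) and Kdm5d fell by 3.46 ± 0.70 (adjusted p = 0.029), calls lost in 13, 13 and 12 of 15 fits that each left out 1 sample. Uty differed by −1.61 without a call (adjusted p = 0.0505). The gap between the 3′ and 5′ control probe sets of Gapdh and beta-actin, which widens as RNA breaks or amplification shortens it, was 4.18 ± 0.53 (SD, n = 7) in Mll-AF9 and 3.69 ± 0.21 (SD, n = 8) in wild type (two-sided exact permutation p = 0.034). Mll-AF9 replicates 1, 3 and 4 (4.87, 4.32 and 4.93) exceeded every wild-type sample. The values of wild type replicates 4 and 8 are given beside the main genes below for this reason.

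Of 18193 genes, 37 were higher in Mll-AF9 CLP (0.203%) and 26 lower (0.143%) by limma at an adjusted p below 0.05. Outside the sex-linked genes these were 36 and 24. The difference was over 2-fold for 33 of the higher and 21 of the lower genes, and 7 called genes had both means below background and are not described further unless they belong to a list. No overlap between the 2 groups' samples was seen for 16 of the higher and 13 of the lower calls, where 0.165% and 0.0879% of all genes separated in that way. Each of the 60 called genes outside the sex-linked list kept its direction when Mll-AF9 was set against wild type replicates 4 and 8 alone. Both of those samples lay below every Mll-AF9 sample for 24 of the 36 higher genes (2.97% of all genes did) and above every one for 19 of the 24 lower genes (2.30%), though these 2 samples also entered the calls. With the Y-linked level as a covariate Gzma alone remained called (adjusted p = 0.0327), and Skida1 was not (adjusted p = 0.0515). With replicates 4 and 8 as the wild-type group Skida1 alone did (adjusted p = 0.0106), and Gzma did not (adjusted p = 0.0899). No gene was called in both fits, and for the genes called in neither, genotype and sex cannot be told apart by a call. With the 3′ to 5′ gap as a covariate 19 of the 60 stayed called.

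**Figure D2:**
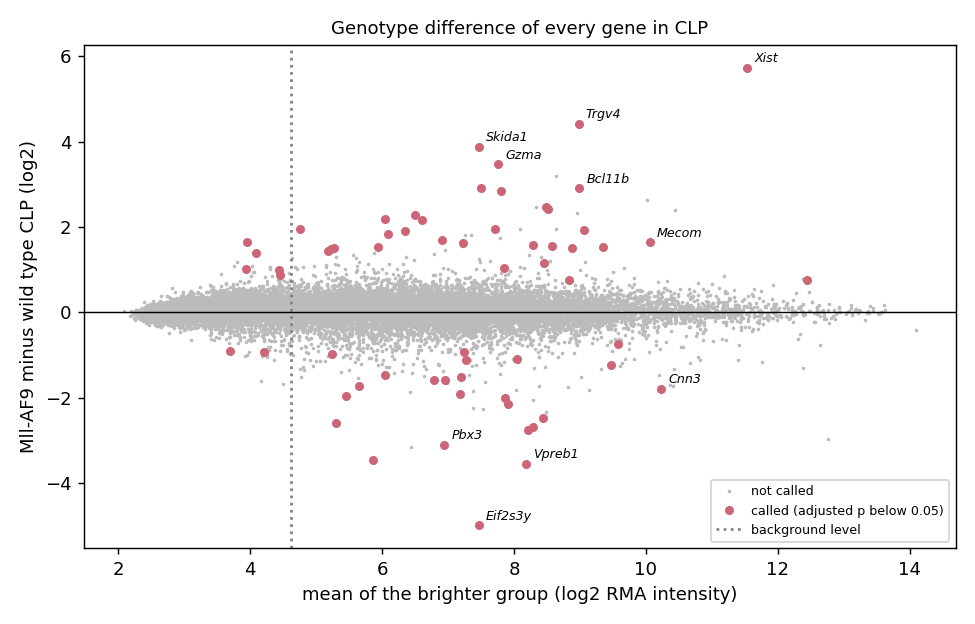
Mll-AF9 minus wild type difference (log2) of each of 18193 genes against the mean of its brighter group (log2 RMA intensity). The 63 called genes are red, with the largest named, and the dotted line is the background level of 4.62. The most separated points are Xist and Trgv4 above and Eif2s3y and Vpreb1 below.

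Genes of the early B lineage were mostly lower in Mll-AF9 CLP. Of 28 members of the early B-lineage list, 22 had a difference below 0 (39.0% of all genes did), none rose, and 3 fell, namely Vpreb1, Blnk and Cnn3, to which 2 probe sets of Ebf1 other than the one chosen add a fall. The median difference was −0.32 over the list and −0.43 over its 21 members above background, against 0.06 over all genes. The same 3 fell without the 3 Mll-AF9 samples of widest 3′ to 5′ gap, and the same 3 without the 3 of low Il7r, while Cnn3 alone stayed called with that gap as a covariate.

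The stretches upstream of Vpreb1, Igll1 and Blnk are shown because these genes share E-box letters, which E2A and related factors can bind, with Gzma beside them as the called gene of the opposite direction. Each is the 250 bases before the RefSeq start (GRCm38.p6, minus strand), at chr16:16869256-16869505 for Vpreb1, chr16:16863986-16864235 for Igll1, chr19:40994222-40994471 for Blnk and chr13:113100982-113101231 for Gzma. Capitals mark CAGCTG and CAGGTG, searched on both strands, where CACCTG is CAGGTG on the other strand.
Vpreb1: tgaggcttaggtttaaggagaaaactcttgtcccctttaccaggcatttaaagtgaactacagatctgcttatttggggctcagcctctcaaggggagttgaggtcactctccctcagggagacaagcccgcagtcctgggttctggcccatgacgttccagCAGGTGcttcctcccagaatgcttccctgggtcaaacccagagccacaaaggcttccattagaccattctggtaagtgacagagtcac
Igll1: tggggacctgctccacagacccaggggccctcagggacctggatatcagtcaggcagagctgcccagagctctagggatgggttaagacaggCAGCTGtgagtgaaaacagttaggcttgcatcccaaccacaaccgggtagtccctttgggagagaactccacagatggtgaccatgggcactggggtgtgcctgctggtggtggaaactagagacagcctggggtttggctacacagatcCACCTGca
Blnk: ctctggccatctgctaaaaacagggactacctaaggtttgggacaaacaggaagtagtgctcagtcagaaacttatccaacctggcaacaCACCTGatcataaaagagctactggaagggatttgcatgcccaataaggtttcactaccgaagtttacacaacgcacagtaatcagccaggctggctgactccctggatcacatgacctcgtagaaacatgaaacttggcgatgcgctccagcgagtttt
Gzma: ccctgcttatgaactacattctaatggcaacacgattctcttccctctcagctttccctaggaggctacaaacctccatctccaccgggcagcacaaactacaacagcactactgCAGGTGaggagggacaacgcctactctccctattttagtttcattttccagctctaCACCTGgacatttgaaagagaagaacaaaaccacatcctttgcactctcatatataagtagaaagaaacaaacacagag
The Vpreb1 and Blnk stretches hold 1 match each and those of Igll1 and Gzma hold 2 each. CAGCTG occurs in 13% and CAGGTG in 17.2% of 32851 promoter stretches of that length, and either in 27.7%. The match in Vpreb1 lies 88 to 83 bases before the start and that in Blnk 160 to 155 bases before it. The B-lineage stretches were chosen for holding these letters, so their matches cannot be weighed against the shares over all promoters. That of Cnn3 was not looked at. These are letters in a sequence, and binding was not measured.

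Vpreb1, one chain of the surrogate light chain, lay between 4.88 and 9.71 (median 8.09) in wild type and between 4.08 and 5.26 (median 4.63) in Mll-AF9. Every wild-type sample but replicate 8 (4.88) stood above all Mll-AF9 samples, replicate 4 (8.09) included. The difference was −3.55 ± 0.51 (SE, adjusted p = 0.002), an 11.7-fold fall, but −1.86 against wild type replicates 4 and 8 alone and −2.09 with the Y-linked covariate (adjusted p = 0.999 and 0.89). Igll1, the other chain of the surrogate light chain, spanned 5.01 to 9.64 (median 7.33) in wild type and 4.61 to 6.80 (median 5.03) in Mll-AF9. Its difference of −2.26 ± 0.53 was not called (adjusted p = 0.0853), and wild type replicate 8 was again the lowest of its group.

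Blnk ran from 7.00 to 9.47 (median 8.21) in wild type and from 3.69 to 6.76 (median 5.70) in Mll-AF9, with no overlap. It fell by 2.77 ± 0.43 (SE, adjusted p = 0.00317), and wild type replicates 4 and 8 stood at 9.31 and 7.00. The 3′ to 5′ covariate left adjusted p-values of 0.0507 for Blnk and 0.0531 for Vpreb1, with differences of −2.75 and −3.11. Cnn3, an actin-binding calponin found in early B cells, spanned 9.52 to 10.66 (median 10.29) against 7.66 to 9.17 (median 8.61), again with no overlap. Cnn3 fell by 1.79 ± 0.23 (SE, adjusted p = 0.00075), a fall also called on 4 of its 5 further probe sets (adjusted p = 0.00115 to 0.00475 on those 4, and 0.112 on the other).

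Ebf1, the factor that commits cells to the B path, depended on the probe set. On the one chosen by the rule it lay at 2.90 to 5.14 in wild type and 2.80 to 3.83 in Mll-AF9, near background, and was not called (−1.05 ± 0.26, adjusted p = 0.106). On 2 further probe sets Ebf1 averaged 6.08 and 4.92 in wild type, above background, and 2.50 and 2.49 in Mll-AF9, below it, and fell by 3.58 ± 0.61 and 2.42 ± 0.42 (adjusted p = 0.0124 and 0.0128 over all probe sets). Its remaining 2 probe sets were below background in both groups and were not called. Pou2af1, a B-cell coactivator, differed by −1.42 ± 0.45 and Vpreb3 by −0.60 ± 0.28, neither of them called. Pax5 and Cd79a, which mark committed B cells, averaged between 3.91 and 4.35 in either genotype, below background. Of 18 priming genes shared by all lymphocytes none was called and the median difference was 0.00. Dntt differed by −0.63 ± 0.18 (adjusted p = 0.229), Rag1 by −0.56 ± 0.60, Rag2 by −0.43 ± 0.29, Satb1 by −0.56 ± 0.17 and Notch1, the receptor that opens the T path, by −0.54 ± 0.22.

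Further genes known from B cells, though not from these alone, fell outside the list and are named after their values were seen. They were lower in Mll-AF9 HSC too, as given with the other populations below. Btla, an inhibitory receptor of lymphocytes, spanned 6.04 to 7.79 (median 7.08) against 4.69 to 5.89 (median 5.49), and fell by 1.59 ± 0.28 (SE, adjusted p = 0.0116) with no overlap. Wild-type means of Btla were 6.96 in CLP, 6.63 in HSC, 6.41 in GMP and 3.97 in CMP. Bank1, a scaffold of B cell receptor signalling, fell by 1.74 ± 0.33 (adjusted p = 0.0204, and 0.0526 without Mll-AF9 replicate 1). Fcrl1, a B-cell co-receptor, fell by 0.98 ± 0.20 (adjusted p = 0.0377), a call lost in 12 of 15 fits that each left out 1 sample. Against wild type replicates 4 and 8 alone Btla differed by −0.95 and Bank1 by −0.88. Tcf4 (E2-2), an E protein that drives plasmacytoid dendritic cells and works in early B cells, lay between 9.33 and 10.02 (median 9.53) in wild type and between 8.28 and 9.15 (median 8.95) in Mll-AF9. It fell by 0.75 ± 0.16 (SE, adjusted p = 0.0437), but the call was lost in 12 of the 15 leave-one-out fits (adjusted p up to 0.095). Its 4 other probe sets above background differed by −0.57 to −0.78, without a call. Tcf4 was the called member of 14 dendritic cell genes, of which 8 had a difference below 0 (39.0% of all genes did). Their median was −0.05, and −0.27 over the 8 above background. Among them Siglech and Bst2, markers of plasmacytoid dendritic cells, had differences of −0.05 ± 0.19 and 0.19 ± 0.23. Cox6a2, also on that list, differed by −0.70 without a call on the probe set chosen. A further probe set of Cox6a2, at 5.25 in wild type and 3.52 in Mll-AF9, fell by 1.73 ± 0.26 (adjusted p = 0.00306).

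Of 11 mature B and plasma cell genes none was called and the median difference was −0.25. Igha lay between 12.03 and 13.94 in wild type and between 4.22 and 12.61 in Mll-AF9, where replicates 3 (6.75) and 6 (4.22) stood far below the rest. Its difference of −2.96 ± 0.94 was not called (adjusted p = 0.287), and neither was that of Jchain (−1.30 ± 0.41, adjusted p = 0.29) or of Ighm (−0.41 ± 0.19). Averaged over the list, levels ran from 5.67 to 6.27 in wild type and from 5.14 to 6.18 in Mll-AF9, and their part in the fall of the early B genes was not tested.

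**Figure D3:**
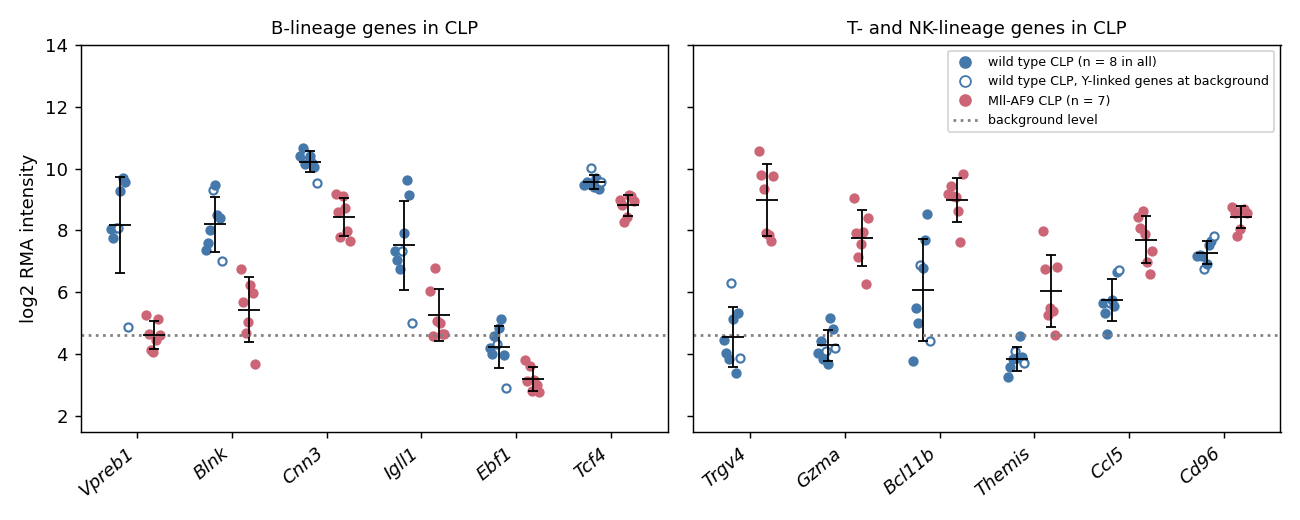
Log2 RMA intensity in each CLP sample of 6 B-lineage genes (left) and 6 T- and NK-lineage genes (right), wild type in blue and Mll-AF9 in red. Bars are the mean and SD, open circles are wild type replicates 4 and 8, and the dotted line is background. Ebf1 is plotted on the probe set chosen by its mean over the series. Blnk, Cnn3 and Tcf4 separate downwards and Trgv4, Gzma and Themis upwards, while 1 open circle of Vpreb1 lies among the Mll-AF9 samples.

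Some early T-lineage and cytotoxic genes were higher in Mll-AF9 CLP. Of 27 T-lineage genes, 24 had a difference above 0 (61.0% of all genes did), with a median of 0.19. On this list 4 rose (Bcl11b, Themis, Trat1 and Sh2d1a, where 0.203% of all genes did) and none fell. The count above 0 was 17 of 27 both with the Y-linked covariate (median 0.09 against 0.04 over all genes, no call) and without the 3 Mll-AF9 samples of widest 3′ to 5′ gap (median 0.15 against 0.02). Of 22 NK, cytotoxic and innate lymphoid genes, 19 were above 0, where 61.0% of all genes were, with a median of 0.16. On this list 3 rose (Gzma, Ccl5 and Il18r1, where 0.203% of all genes did) and none fell. Themis and Sh2d1a stayed called without the 3 Mll-AF9 samples of widest 3′ to 5′ gap and without the 3 of low Il7r, and Gzma under both and with the gap as a covariate. With that covariate no T-lineage gene was called.

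Trgv4, which encodes a variable stretch of the gamma chain in gamma-delta T cell receptors, lay between 3.40 and 6.31 (median 4.26) in wild type and between 7.65 and 10.55 (median 9.35) in Mll-AF9. The groups did not overlap, and wild type replicates 4 and 8 stood at 6.31 and 3.89. The difference of 4.42 ± 0.47 (SE, adjusted p = 7.7e-05) is at least 15.9-fold, because the wild-type mean was below background, and a further probe set above background differed by 4.57 (adjusted p = 0.000255). Trgv4 is a segment whose transcripts appear both before and after the locus is joined, and the array does not tell these apart. Trgv1 differed by 1.82 ± 0.50 without a call (adjusted p = 0.187). Of 29 receptor and antibody segments and constant genes measured, Trgv4, Trbv1 and Trbv13-2 rose and none fell, with a median of 0.09. Trbv1 rose by 2.42 ± 0.49 (adjusted p = 0.0338) and Trbv13-2 by 1.84 ± 0.36 (adjusted p = 0.0262), calls lost in 10 and 9 of the 15 leave-one-out fits (adjusted p up to 0.0813 and 0.0712). Segments of 1 family share sequence, so their probe sets may bind each other's transcripts, and a probe set of Trgv4 below background differed by 0.09.

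Gzma, the granzyme A protease of killer cells, spanned 3.70 to 5.17 (median 4.17) in wild type and 6.27 to 9.03 (median 7.91) in Mll-AF9. Wild type replicates 4 and 8, at 4.12 and 4.21, lay with the rest of their group, and no sample overlapped. It rose by 3.46 ± 0.33 (SE, adjusted p = 3.25e-05), at least 8.26-fold, and no leave-one-out fit lost the call (adjusted p up to 0.000177). Ccl5, a chemokine of T and NK cells, ran from 4.64 to 6.73 (median 5.67) against 6.60 to 8.62 (median 7.88) and rose by 1.95 ± 0.33 (adjusted p = 0.00909), with wild type replicate 8 (6.73) inside the Mll-AF9 range. Il18r1, the interleukin-18 receptor chain, was at 5.65 to 9.10 (median 7.08) against 8.47 to 9.65 (median 9.01). Il18r1 rose by 1.92 ± 0.41 (adjusted p = 0.0465), a call lost in 13 of the 15 leave-one-out fits (adjusted p up to 0.119). Klra8, an NK cell lectin receptor, averaged 3.95 in Mll-AF9 and 2.30 in wild type, both below background, so its call gives no level.

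Bcl11b, the factor that fixes T-cell commitment, lay between 3.79 and 8.52 (median 6.14) in wild type and between 7.62 and 9.82 (median 9.12) in Mll-AF9. Wild type was scattered, with replicates 4 and 8 at 6.89 and 4.44, and replicates 6 (7.68) and 7 (8.52) overlapped the Mll-AF9 range. It rose by 2.91 ± 0.57 (SE, adjusted p = 0.0246), and 3 further probe sets rose by 2.85, 2.10 and 1.08. The call was lost in 6 of the 15 leave-one-out fits (without Mll-AF9 replicate 1, 2, 3 or 7 or wild type replicate 2 or 3, adjusted p up to 0.0654). Themis, a T-cell receptor signalling protein of thymocytes, spanned 3.27 to 4.60 against 4.62 to 7.97 (median 5.51) and rose by 2.19 ± 0.38 (adjusted p = 0.00991), at least 2.70-fold. Cd96, a receptor of T and NK cells outside the lists, rose by 1.16 ± 0.20 (adjusted p = 0.00909), as did Tox2, an HMG-box factor of NK and T cells, by 1.53 ± 0.28 (adjusted p = 0.0157). Sh2d1a, the adaptor SAP of T and NK cells, was called (1.38 ± 0.20, adjusted p = 0.002) with both means below background, so it gives no level. Trat1, a T cell receptor adaptor, rose by 1.49 ± 0.32 (adjusted p = 0.0453), a call lost in 13 of the 15 leave-one-out fits (adjusted p up to 0.111). Thy1, a surface protein of T cells, differed by 1.94 ± 0.43 without a call (adjusted p = 0.0636).

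Several genes that mark finished T and NK cells were near or below background, but not all. Cd3d, Cd3e and Cd3g, the signalling chains of the T cell receptor, averaged 4.18, 4.84 and 3.63 in Mll-AF9 and 4.09, 4.55 and 2.97 in wild type, with differences of 0.09 ± 0.25, 0.29 ± 0.19 and 0.66 ± 0.20, none of them called. Cd4 and Cd8a averaged 4.67 and 4.94 in Mll-AF9 and differed by 0.04 and 0.12. Ncr1, which defines NK cells, was below background in all 15 samples, and Prf1, the pore-forming perforin, averaged 4.34 in Mll-AF9. Others were above it. Ctsw, a member of the NK list, averaged 7.40 in Mll-AF9 and 6.73 in wild type and was not called. Gzma and Ccl5, given above, averaged 7.76 and 7.71 in Mll-AF9. Klrd1, an NK receptor chain, was scattered over 3.88 to 6.75 in wild type and 4.06 to 7.63 in Mll-AF9 and was not called (1.30 ± 0.54, adjusted p = 0.46). Mean levels over the T-lineage list ran from 4.51 to 5.14 in wild type and from 4.97 to 5.75 in Mll-AF9, and over the NK list from 4.74 to 5.92 and from 5.15 to 5.95.

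Genes known as targets of MLL fusions moved in both directions. Of 19 measured outside the Hox clusters, Skida1 and Mecom rose and Pbx3 and Prdm16 fell, with a median of 0.04. Of 9 HoxA genes Hoxa5 rose, none fell and 8 had a difference above 0, with a median of 0.71, where 61.0% of all genes were above 0. Without the 3 Mll-AF9 samples of widest 3′ to 5′ gap 5 of the 9 were above 0 (median 0.67) and none was called. Of 9 HoxB genes none was called (median −0.01), among them Hoxb3 at −1.27 ± 0.32 (adjusted p = 0.116). Kmt2a itself differed by −0.56 ± 0.23 (adjusted p = 0.469) and Mllt3 by −0.03 ± 0.38. Whether their probe sets read the fused transcript was not examined, so they give no check of genotype, and of 7 genes of the targeted locus and its partners none was called.

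Skida1, a SKI/DACH domain gene known as a target of MLL fusions, lay between 2.46 and 6.09 (median 3.37) in wild type and between 6.41 and 8.42 (median 7.24) in Mll-AF9. The groups did not overlap, and wild type replicates 4 and 8 were among the lower values at 3.27 and 2.90. It rose by 3.88 ± 0.44 (SE, adjusted p = 0.000158), at least 6.33-fold, and with the 3′ to 5′ covariate by 4.10 (adjusted p = 0.00214). Mecom, whose product EVI1 sustains stem cells, spanned 6.59 to 9.32 (median 8.61) in wild type and 9.73 to 10.27 (median 10.09) in Mll-AF9. No sample overlapped, wild type replicates 4 (8.77) and 8 (9.10) were above the median of their group, and Mecom rose by 1.64 ± 0.29 (SE, adjusted p = 0.0114).

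Hoxa5, a homeobox gene of early progenitors, ran from 5.57 to 7.64 (median 6.70) against 7.73 to 8.68 (median 8.28), without overlap. Hoxa5 rose by 1.57 ± 0.28 (SE, adjusted p = 0.0113) and by 1.83 on a further probe set (adjusted p = 0.00305), but wild type replicates 4 (7.35) and 8 (7.32) stood close to the Mll-AF9 range. Against those 2 samples alone Hoxa5 differed by 0.95 (adjusted p = 0.928). The 3′ to 5′ covariate left Hoxa5 at 1.39 (adjusted p = 0.185) and Mecom at 1.51 (adjusted p = 0.162). Hoxa9, which together with Meis1 drives MLL leukaemia, was bright in both groups, at 10.77 to 12.30 in wild type and 12.01 to 12.65 in Mll-AF9, and its 0.78 ± 0.20 was not called (adjusted p = 0.119). Hoxa7 differed by 0.74 ± 0.21, Hoxa10 by 0.73 ± 0.25 and Meis1 by 0.33 ± 0.29, none of them called.

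Pbx3, a partner of Hox proteins on DNA, lay between 5.74 and 8.16 (median 6.89) in wild type and between 2.09 and 5.09 (median 3.61) in Mll-AF9, with wild type replicates 4 and 8 at 7.82 and 6.83. No sample overlapped, and it fell by 3.10 ± 0.41 (SE, adjusted p = 0.000949), at least 4.57-fold, since the Mll-AF9 mean was below background. A further probe set above background differed by −0.78 (adjusted p = 0.123). Prdm16, a stem cell factor related to Mecom, spanned 5.32 to 7.41 (median 7.04) against 4.51 to 6.07 (median 5.26) and fell by 1.58 ± 0.31 (adjusted p = 0.0246). Prdm16 lost its call in 6 of 15 leave-one-out fits (without Mll-AF9 replicate 1, 4 or 7 or wild type replicate 2, 3 or 5, adjusted p up to 0.0654), and another probe set above background differed by 0.12 (adjusted p = 0.912). Eya1 (−1.66 ± 0.40, adjusted p = 0.0967) and Zfp521 (−1.25 ± 0.44, adjusted p = 0.363), a phosphatase and a zinc finger factor of early progenitors, were not called on the probe sets chosen. A further probe set of Eya1, at 6.21 in wild type and 4.57 in Mll-AF9, fell by 1.63 ± 0.26 (adjusted p = 0.00475), and one of Zfp521 differed by −0.02.

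Over the 22 stem cell genes, which share Mecom and Prdm16 with the list above, 1 rose and 1 fell, with a median of 0.10. Procr, the surface marker EPCR, differed by −0.96 ± 0.42, Fgd5 by −1.37 ± 0.38 (adjusted p = 0.206) and Hlf by 0.05 ± 0.39. Mean levels over that list were 7.33 to 8.47 in wild type and 7.48 to 8.66 in Mll-AF9.

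**Figure D4:**
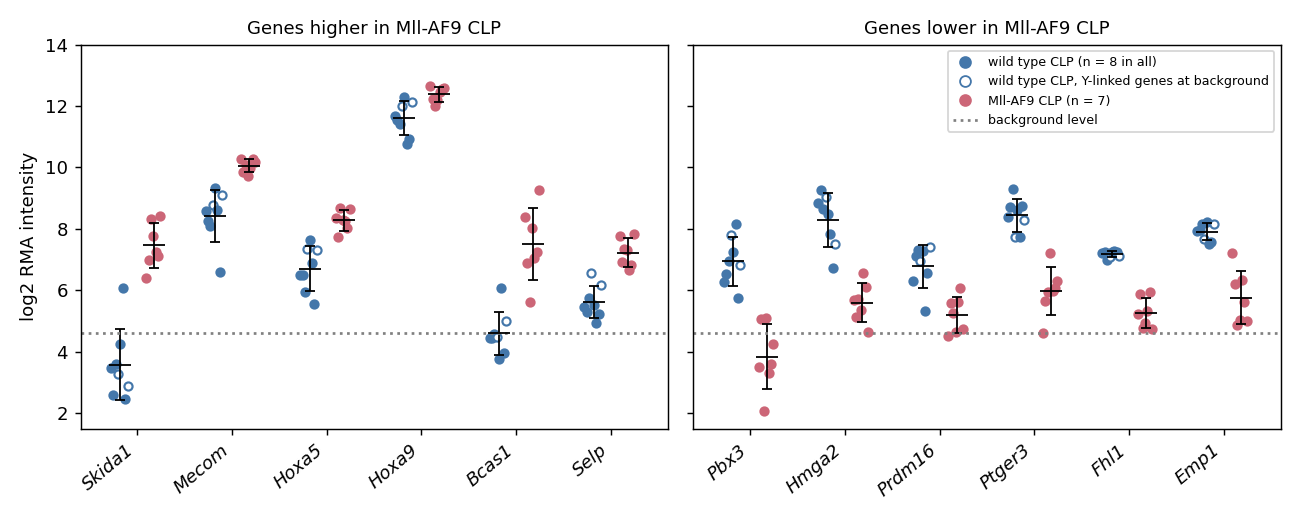
Log2 RMA intensity in each CLP sample of 6 genes higher in Mll-AF9 (left, of which Hoxa9 was not called) and 6 lower (right), wild type in blue, Mll-AF9 in red. Bars are the mean and SD, open circles are wild type replicates 4 and 8, and the dotted line is background. Skida1, Mecom and Hoxa5 separate upwards, Pbx3, Hmga2, Ptger3, Fhl1 and Emp1 separate downwards, and Prdm16 overlaps.

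Genes outside the lymphoid lists also fell. Fhl1, a LIM-domain protein, was tight in wild type at 7.00 to 7.28 (median 7.23), replicates 4 and 8 included, and lay between 4.75 and 5.93 (median 5.22) in Mll-AF9. It had the lowest adjusted p among falls, with −1.92 ± 0.20 (SE, adjusted p = 5.99e-05). Hmga2, a chromatin protein of fetal stem cells held down by let-7 microRNAs, spanned 6.73 to 9.28 (median 8.55) against 4.65 to 6.56 (median 5.70), without overlap. Hmga2 fell by 2.69 ± 0.35 (adjusted p = 0.00075), and on 2 further probe sets above background by 2.68 and 3.31. It was the called member of 9 fetal-type let-7 targets (median 0.10), where Lin28a and Plagl1 differed by 0.17 and 0.20 at levels below background.

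Ptger3, a receptor of prostaglandin E2 that lowers cyclic AMP, lay between 7.73 and 9.29 (median 8.51) in wild type and between 4.62 and 7.22 (median 5.97) in Mll-AF9. It fell by 2.47 ± 0.31 (SE, adjusted p = 0.000493) without overlap, the called member of 19 prostaglandin and chemokine receptors (median 0.15). Ptger2, which raises cyclic AMP, differed by −1.86 ± 0.42 without a call (adjusted p = 0.0727). Emp1, a tetraspan membrane protein, was at 7.52 to 8.21 (median 7.95) against 4.88 to 7.21 (median 5.63) and fell by 2.14 ± 0.29 (adjusted p = 0.00128). Slc35d3, a transporter of nucleotide sugars, fell by 2.00 ± 0.36, Serpinf1 (the secreted factor PEDF) by 1.51 ± 0.29, Ankrd6 by 1.48 ± 0.29, the actin regulator Cttn by 1.23 ± 0.24 and the stress kinase Map3k5 by 1.10 ± 0.24. Klhl4 (−2.60 ± 0.48), Cd163 (−1.96 ± 0.41), a scavenger receptor of macrophages, and Ankrd6 had Mll-AF9 means below background, so the falls are at least 1.61-, 1.79- and 2.31-fold. The calls of Serpinf1, Ankrd6, Cttn, Map3k5 and Cd163 were lost in 5, 6, 7, 13 and 10 of 15 leave-one-out fits (adjusted p up to 0.111), and that of Slc35d3 in none. Further probe sets above background differed by −0.18 for Emp1, −0.27 for Serpinf1, −0.85 for Cttn and −1.25 for Map3k5, none of them called. Against wild type replicates 4 and 8 alone Cd163 differed by −0.70 and Ankrd6 by −0.84.

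Among the remaining rises, Bcas1 lay between 3.78 and 6.07 (median 4.47) in wild type and between 5.64 and 9.28 (median 7.24) in Mll-AF9, and Bpifc, a lipid-binding protein, between 2.77 and 5.75 (median 5.14) and between 5.75 and 9.12 (median 8.22). Bcas1 rose by 2.90 ± 0.43 (adjusted p = 0.002), at least 6.29-fold, and Bpifc by 2.83 ± 0.48 (adjusted p = 0.00909). Lypd6b (2.28 ± 0.34, at least 3.14-fold) and Endou (2.15 ± 0.31, at least 3.83-fold), an RNA-cutting enzyme, rose without overlap between groups. Selp, the adhesion molecule P-selectin, spanned 4.93 to 6.57 (median 5.49) against 6.65 to 7.83 (median 7.30) and rose by 1.62 ± 0.25 (adjusted p = 0.00317), again without overlap, but by 0.87 against wild type replicates 4 and 8 alone. Further probe sets above background differed by 1.05 and 1.10 for Selp, 1.35 for Endou and 1.19 for Ffar2, none of them called. Chdh, an enzyme that oxidises choline, rose by 1.51 ± 0.22 (adjusted p = 0.002), Slc16a11, a monocarboxylate transporter, by 1.54 ± 0.27, Ffar2, a receptor of short-chain fatty acids, by 1.52 ± 0.29, and Clec10a, a lectin of dendritic cells and macrophages, by 1.69 ± 0.35. Fam169b (1.90 ± 0.36), Spats2 (1.5 ± 0.32) and Mst1r, a receptor kinase (1.44 ± 0.26), had wild-type means below background and rises of at least 3.07-, 1.57- and 1.47-fold. Zfyve21 (1.04 ± 0.22), Igf1r, the receptor of insulin-like growth factor (0.76 ± 0.15), and the splicing regulator Mbnl1 (0.76 ± 0.14) rose less. Igf1r had 3 other probe sets above background with differences of −0.00 to 0.40, and Mbnl1 2 with −0.72 and 0.32, none of them called. Leave-one-out fits ended the calls of Zfyve21 in 14, Spats2 and Clec10a in 11, Igf1r in 7, Ffar2 in 6, Fam169b in 5 and Mbnl1 in 3 of 15 (adjusted p up to 0.119), and left those of Bcas1, Bpifc, Lypd6b, Endou, Selp, Chdh, Slc16a11 and Mst1r.

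Of 23 cytokine receptors, Il18r1 was the called member and the median was 0.18. Il4ra (0.78 ± 0.25) and Ifngr1 (0.70 ± 0.22) had the next smallest p-values and were not called. Of 15 mitosis genes, 14 had a difference below 0 (39.0% of all genes did), and 1 fell (0.143% of all genes did). This was Kif11, the spindle motor, which fell by 0.92 ± 0.18 (adjusted p = 0.0283). The call was lost in 9 of the 15 leave-one-out fits (adjusted p up to 0.0735), and another probe set of Kif11 differed by −0.55 without a call. With the Y-linked covariate 9 of the 15 mitosis genes were below 0 (median −0.07). Ccna2 (−0.62 ± 0.19), Birc5 (−0.53 ± 0.19) and Mki67 (−0.42 ± 0.18) were not called, and the median was −0.25. Zwilch, a kinetochore protein outside the list, fell by 1.12 ± 0.24 (adjusted p = 0.0483), a call lost in 13 of the 15 fits (adjusted p up to 0.116). Of 15 DNA replication genes none was called and the median was −0.07.

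All 16 immediate-early and stress genes had a difference below 0 (39.0% of all genes did), with a median of −0.91, and none was called. These genes respond within minutes to handling of cells as well as to growth signals. Egr2 lay between 7.72 and 9.58 (median 8.02) in wild type and between 3.33 and 8.01 (median 6.65) in Mll-AF9, and differed by −2.06 ± 0.51 (adjusted p = 0.117). Egr3 differed by −1.76 ± 0.66, Jun by −1.12 ± 0.40 and Egr1 by −0.76 ± 0.30. Mean levels over the list ran from 9.41 to 10.43 in wild type and from 7.62 upwards in Mll-AF9, where the ranges overlapped. With the 3′ to 5′ gap as a covariate the median was −0.31 with 13 of 16 below 0, and without the 3 Mll-AF9 samples of widest gap it was −0.31 with 15 of 16 below 0.

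The lists of myeloid, erythroid, mast and stromal cells held no called gene. Neutrophil and granule genes (16 measured, 13 above 0 where 61.0% of all genes were, median 0.38) were scattered. Camp lay between 3.92 and 11.03 in wild type and between 6.79 and 11.70 in Mll-AF9. Camp, Ngp, S100a8 and S100a9, the granule and calprotectin genes of neutrophils, differed by 2.46 ± 0.92, 2.62 ± 1.07, 2.38 ± 0.99 and 2.32 ± 1.00 (adjusted p = 0.397 to 0.49). Monocyte and macrophage genes (15) had a median of −0.30, erythroid and megakaryocyte genes (17) of 0.25, mast cell and basophil genes (8) of −0.78 and stroma and endothelium genes (11) of −0.21. Car1, of red cell precursors, spanned 6.00 to 10.51 in wild type and 6.33 to 11.47 in Mll-AF9, and Gata1 5.27 to 7.74 and 5.77 to 8.96. Mean levels over the neutrophil list ran from 5.62 to 9.02 and from 6.88 to 9.80, and over the erythroid list from 6.07 to 7.33 and from 6.14 to 8.34, and the part of such RNA in the results was not tested. The lists of interferon response, MYC and ribosome genes, p53 response, MHC class II and CDK inhibitors held no call, with medians of 0.19, −0.08, −0.05, −0.01 and 0.06.

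The genotype difference in CLP was then set against that in GMP, CMP and HSC in 1 limma model of all 8 groups, which gives CLP standard errors of its own. It differed from GMP for 7 genes upwards and 5 downwards (0.0385% and 0.0275% of genes), from CMP for 4 and 8 (0.0220% and 0.0440%) and from HSC for 20 and 6 (0.110% and 0.0330%). These 3 comparisons share the CLP samples. Trgv4 differed by 4.42 ± 0.34 (SE) in CLP and by −0.17 ± 0.44 in GMP, 0.60 ± 0.44 in CMP and 0.38 ± 0.41 in HSC, so CLP exceeded them by 4.58, 3.82 and 4.04 (adjusted p = 3.51e-06, 0.000161 and 1.2e-05). Gzma exceeded them by 3.33, 3.56 and 3.77 (adjusted p = 4.37e-06, 1.48e-06 and 1e-07), with differences of 0.13, −0.10 and −0.31 in the others. Vpreb1, whose mean was 8.18 in wild-type CLP and 5.05 or less in every other group outside CLP, fell short of GMP, CMP and HSC by 4.04, 3.37 and 3.00 (adjusted p = 0.000306, 0.00541 and 0.0178). Levels outside CLP were thus near background, where a fall of Vpreb1 could hardly be seen. Themis exceeded GMP by 2.38 and HSC by 2.23 (adjusted p = 0.00794 and 0.0107), and its 2.02 above CMP was not called (adjusted p = 0.0568). Il18r1 and Cd96 were not particular to CLP. Il18r1 differed by 2.65 ± 0.44 in HSC, 2.30 ± 0.46 in CMP and 0.47 ± 0.46 in GMP. Cd96 differed by 1.40 ± 0.23, 0.94 ± 0.24 and 0.60 ± 0.24 in the same order. No contrast of CLP with another population was called for either gene. Blnk stood apart from GMP (−2.67, adjusted p = 0.027) and CMP (−2.58, adjusted p = 0.031), but not by a call from HSC, where it differed by −0.88 ± 0.40. Wild-type Blnk means were 4.34 in GMP and 4.32 in CMP, below background, so a fall there could not be seen, and 5.39 in HSC. Btla, Bank1, Fcrl1 and Tcf4 differed in HSC by −2.22 ± 0.39, −1.26 ± 0.37, −0.945 ± 0.199 and −0.88 ± 0.21. For these 4 genes the contrast of CLP with HSC was not called.

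For known targets of MLL fusions and some other genes the populations divided differently. Prdm16 differed by −1.58 ± 0.25 in CLP and −0.90 ± 0.31 in HSC but by 1.34 ± 0.32 in GMP and 0.91 ± 0.32 in CMP, and CLP stood apart from GMP (−2.92, adjusted p = 5.24e-05) and CMP (−2.49, adjusted p = 0.0017). Mecom differed by 1.64 in CLP and 1.62 in HSC, where wild-type means were 8.42 and 8.78, and by 3.92 in CMP from a wild-type mean of 4.30, below background. CLP was below CMP by 2.28 for Mecom (adjusted p = 0.00951) and by 1.63 for Hoxa9 (adjusted p = 0.00818). Cnn3 and Fhl1 stood apart from CMP (−2.03 and −1.68, adjusted p = 0.0297 and 0.00461), whereas Cnn3 differed by −1.79 in CLP and −1.84 in HSC. For Skida1, Pbx3, Hmga2, Ptger3 and Hoxa5 no contrast of CLP with another population was called, which does not show that the populations responded alike. Ptger3, for one, differed by −2.47 ± 0.31 in CLP, −2.16 ± 0.40 in GMP, −2.40 ± 0.40 in CMP and −2.07 ± 0.38 in HSC. The deposited CMP values carry more decimals than the others and may have been processed apart, and what this adds to the contrasts with CMP was not tested.

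**Figure D5:**
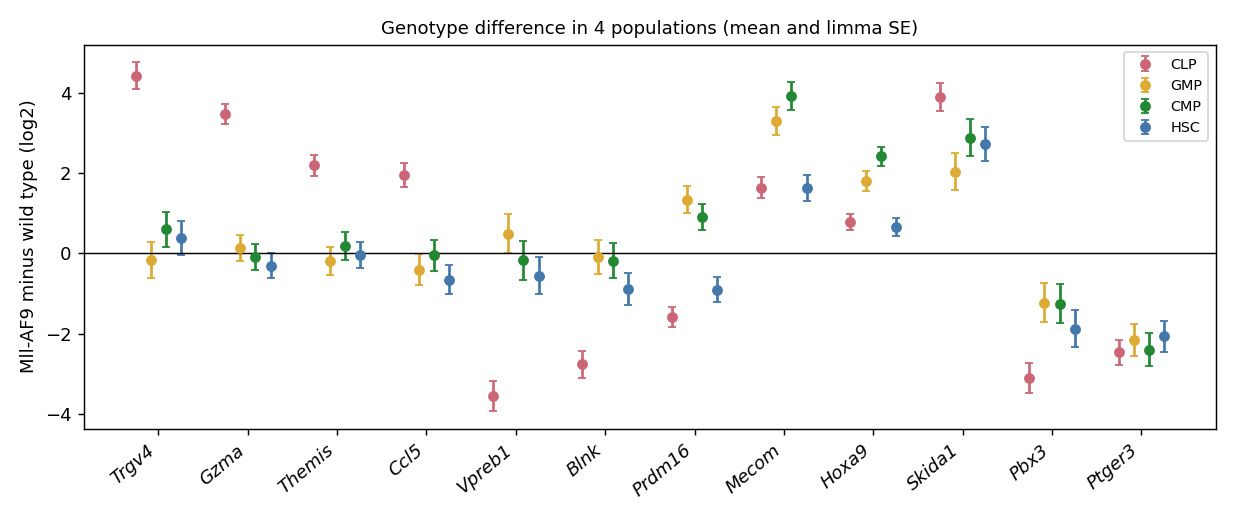
Mll-AF9 minus wild type difference (log2, points) with limma's SE (bars) of 12 genes in CLP (red), GMP (yellow), CMP (green) and HSC (blue). The T, NK and B genes on the left depart from 0 in CLP while the other populations lie nearer to it, with Blnk at −0.88 ± 0.40 in HSC. Prdm16 has opposite signs in CLP and GMP, and Ptger3 lies between −2.07 and −2.47 throughout.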

How the data were processed

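Messenger RNA was hybridised to 1-colour mouse arrays, and of 51 arrays the 15 titled as CLP were compared. The intensity values were deposited by the authors on a linear scale after RMA, per the submitters' processing notes, with its version not given in the sources used here; log2 was taken here. RMA sets all arrays to a common distribution, so a shift of all genes cannot be seen (precision is limited by how many arrays there are). Of 45101 probe sets, 34945 carried 1 gene, and symbols were updated to GRCm38.p6 through gene identifiers. Each of 18193 genes was read from its probe set with the highest mean over the series' 43 replicates. limma 3.58.1 (R 4.3.3; lmFit, eBayes with trend) was run over all genes with Benjamini-Hochberg adjustment at 0.05, and checked on simulated data. The exact permutation test used scipy 1.17.1. A fold against a group below background is set against the background level. Named are the called genes above background (clone names, such as Rik genes, passed over), the gate markers, and per list the called members and up to 3 of smallest p. Members, lists and tests were chosen with earlier results of these data known. Alternatives were other probe set rules, normalisation, offsets, filters, covariates, weights and samples.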

Additional observations from a re-analysis of the deposited data

Results flagged for a closer look

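Single samples stood apart from the rest of their group in 14 of 246 combinations of group and gene over 123 genes, where chance alone marks about 1 in 20. In wild type, replicate 7 was low for Bpifc (2.77, next 5.05) and Mecom (6.6, next 8.11) and high for Sh2d1a (3.16, next 2.75). Wild type replicate 8 was low for Vpreb1 (4.88, next 7.75), and replicate 5 was low for Mpo (9.46, next 11.57) and high for Pax5 (4.74, next 3.92). Wild type replicate 6 was high for Camp (11.03, next 6.54) and Cd3d (4.93, next 4.12) and low for Notch1 (9.02, next 9.85). In Mll-AF9, replicate 3 was high for Cd3d (5.59, next 4.30), Pax5 (4.88, next 4.15) and Vpreb3 (5.01, next 4.41), and replicate 4 was low for Fcrl1 (3.67, next 4.22) and Cd27 (5.94, next 7.27).

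The genotype difference in CLP differed from that in another population for the following named genes, by limma's contrast of the 2 differences, and the contrasts share the CLP samples. Against GMP, CLP was higher for Trgv4 (4.58, adjusted p = 3.51e-06), Gzma (3.33, adjusted p = 4.37e-06), Themis (2.39, adjusted p = 0.00794), Ccl5 (2.36, adjusted p = 0.0294), Slc16a11 (1.75, adjusted p = 0.0167) and Sh2d1a (1.2, adjusted p = 0.0294). It was lower for Vpreb1 (−4.03, adjusted p = 0.000306), Prdm16 (−2.92, adjusted p = 5.24e-05), Blnk (−2.68, adjusted p = 0.027) and Gfra1 (−1.09, adjusted p = 0.0405).

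Against CMP, CLP was higher for Trgv4 (3.82, adjusted p = 0.000161), Gzma (3.56, adjusted p = 1.48e-06), Klra8 (1.74, adjusted p = 0.00402) and Sh2d1a (1.46, adjusted p = 0.00221). It was lower for Vpreb1 (−3.37, adjusted p = 0.00541), Blnk (−2.58, adjusted p = 0.031), Prdm16 (−2.49, adjusted p = 0.0017), Mecom (−2.28, adjusted p = 0.00951), Cnn3 (−2.03, adjusted p = 0.0297), Fhl1 (−1.68, adjusted p = 0.00461) and Hoxa9 (−1.63, adjusted p = 0.00818).

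Against HSC, CLP was higher for Trgv4 (4.04, adjusted p = 1.2e-05), Gzma (3.78, adjusted p = 1e-07), Ccl5 (2.61, adjusted p = 0.00455), Trbv1 (2.57, adjusted p = 0.0342), Klra8 (2.34, adjusted p = 8.33e-06), Ighm (2.28, adjusted p = 0.0314), Themis (2.23, adjusted p = 0.0107), Sh2d1a (1.51, adjusted p = 0.000422) and Insl5 (1.09, adjusted p = 0.0356). It was lower for Vpreb1 (−2.99, adjusted p = 0.0178) and Gfra1 (−1.12, adjusted p = 0.0178). Gfra1, Insl5, Klra8 and Sh2d1a had both CLP means below background. Vpreb1 was near background in the groups outside CLP, where a fall could hardly be seen.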

How the results depend on the processing

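The count of 37 higher genes stayed within 1.5 times under most alternatives and moved to 1 with the Y-linked level as a covariate, 1 against wild type replicates 4 and 8 alone, 12 with the 3′ to 5′ gap as a covariate, 113 with array weights and 158 in a model of all 8 groups. The 26 lower genes became 0, 0, 7, 87 and 113 in those fits, and 41 with Il7r as a covariate. Where limma called 0 lower genes, 394 and 356 had an unadjusted p below 0.05 and a lower value. Of alternatives chosen after seeing the data, leaving out the 3 Mll-AF9 samples of low Il7r gave 23 and 12, and leaving out the 3 of widest 3′ to 5′ gap gave 11 lower genes. Leaving out 1 sample gave 24 (wild type replicate 2) to 42 higher and 12 (wild type replicate 2) to 29 lower genes, and 15 and 17 lower without Mll-AF9 replicate 7 and wild type replicate 1. Of the 60 called genes outside the sex-linked list, 34 stayed called in all 15 such fits. With the replicate number as a block the counts were 30 and 26, but same-numbered samples correlated at −0.29 to 0.096 and 1 of 7 was closest to its own number, so the numbers share only a name. The 12 genes whose difference in CLP departed from GMP became 5 in a model of those 4 groups, 19 among genes above background, 21 after renewed quantile normalisation and 128 with array weights. The 12 against CMP became 7 with 4 groups and 97 with weights. The 26 against HSC became 5, 15 above background, 17 with weights and 17 with the replicate block. Directions reversed for Eif2s3y (0.015 with the Y-linked covariate, 0.176 against replicates 4 and 8), Kdm5d (0.012 against those), Xist (−0.107 and −0.276) and Mbnl1 (−0.725 on the probe set of largest variance). The fits against replicates 4 and 8 have fewer samples and those with covariates fewer degrees of freedom. The Y-linked covariate also largely follows genotype, as it lay below background in all 7 Mll-AF9 and in 2 wild-type samples. With it the differences moved as well, from −3.55 to −2.09 for Vpreb1 and from 3.88 to 4.31 for Skida1. What each of these adds to the changed counts was not tested. Signal near background limits Sh2d1a, Klra8 and the probe set chosen for Ebf1.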
